A study of Mus musculus with 10 samples.

Results

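The 37 loci described here are genes of the cell cycle and DNA replication, of 21631 protein-coding loci in all. They were chosen by name for what their products do, from origin licensing to mitosis. A locus was the mm10 gene body with 10 kb on either side, and an ATAC-seq peak was counted at a locus when its summit, the point of highest signal, lay inside it. ATAC-seq uses a transposase to cut and tag open chromatin, so peaks mark accessible DNA and say nothing directly of transcription. The 10 libraries came from C57BL/6J mouse bone marrow in 4 groups. Scf-GFP-negative (n = 2) and Scf-GFP-positive (n = 2) cells were sorted fresh from the CD45- Ter119- CD31- fraction, which leaves out most blood and endothelial cells, and differ in a GFP reporter of Scf (Kitl), the stem cell factor gene. Both cultured groups were seeded from Scf-GFP-positive cells in alpha-MEM with fetal bovine serum, FGF-basic, antibiotics and L-glutamine. The control group (n = 3) was transduced with a control vector, and rMSC (n = 3) received Klf7, Ostf1, Xbp1, Irf3 and Irf7. No library tests growth in culture without a vector, so culture and transduction cannot be told apart. The labels do not say that replicates were separate animals or cultures, and p-values therefore measure only the spread between these libraries.

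A cell leaves rest when D-type cyclins with Cdk4 and Cdk6 phosphorylate the retinoblastoma protein, which frees E2F factors to switch on the genes of DNA replication. Cdc6 and Cdt1 load the Mcm2 to Mcm7 helicase on origins, cyclins E and A with Cdk2 fire them, and cyclin B with Cdk1 then opens mitosis, which the Aurora and Polo kinases and the Bub1 checkpoint carry through. In bone marrow most Scf-expressing stromal cells are thought to divide rarely, whereas erythroid precursors divide fast, and serum and FGF drive the growth of stromal cells in culture.

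List length differed between libraries, from 39936 to 78489 deposited peaks, and read depth is not known. All counts below therefore come from equal-size lists, the 39912 peaks with the highest −log10 p in each library. The weakest peaks in these lists had a −log10 q of 2.653 and 2.097 in the Scf-GFP-negative group and of 4.268 to 5.802 in the other 8, so weaker peaks entered the Scf-GFP-negative counts. The sort label was checked against marker loci. Summed over 12 mesenchymal loci, Scf-GFP-negative libraries had 13 and 11 summits, Scf-GFP-positive 75 and 65, control 65 to 77 and rMSC 46 to 49. Prrx1 was at 0 in both Scf-GFP-negative libraries, and Lepr was at 0 in all cultured ones. Over 8 erythroid and megakaryocyte loci the sums were 78 and 103 in the Scf-GFP-negative, 28 and 28 in the Scf-GFP-positive, 12 to 15 in the control and 10 to 13 in the rMSC libraries. The Scf-GFP-negative libraries thus go against a label of mesenchymal stroma, and they are called by their sort here.

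Where a start site was available, the starts of the cell cycle genes were open in nearly every library, sorted or cultured. Start sites came from RefSeq's promoters (GRCm38.p6, the assembly of mm10) for 31 of the 37 genes, and a start counted as open when a summit lay within 1 kb. Of these, 28 (90.3%) had a start peak in all 10 libraries, against 40.5% of 17274 coding genes. The 3 exceptions each missed 1 or 2 libraries. Tyms, thymidylate synthase, had none in control 2, E2f2 none in control 1 and control 3, and Bub1 none in rMSC 3. Aurkb, Ccna2, Ccnd1, Ccnd2, Ccne2 and Mcm4 were not matched.

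The strength of a start peak is given here as its percentile by −log10 p within its own list, where 100 is the strongest. E2f3, an activating E2F, had the highest median over the 10 libraries at 99.1, followed by the sliding clamp Pcna at 97.5, Mcm3 at 97.1 and cyclin E1 (Ccne1) at 96.7. Tyms (39.5), E2f2 (49.4), Bub1 (63.1), Ccnb2 (67.9) and Cdk6 (68.1) were the lowest. Per library the median over the genes was 82.5 to 89.2, against 79.9 to 85.5 over all coding genes with a start peak. At the Cdk6 start the 4 sorted libraries lay at 83.0 to 87.0 and the 6 cultured ones at 12.8 to 69.0, without overlap. Mcm6 likewise separated sorted libraries, at 93.7 to 96.7, from cultured ones, at 81.7 to 87.4. Cdc20, the activator of the anaphase-promoting complex, went the other way, at 78.7 to 92.0 in sorted libraries and above them all, up to 98.4, in cultured ones. The start of Cdk1 stood at 95.3 to 97.4 in rMSC and at 87.9 to 93.2 in the other 7 libraries. These 4 starts were picked after their values were seen, and the differences were not tested.

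**Figure D1:**
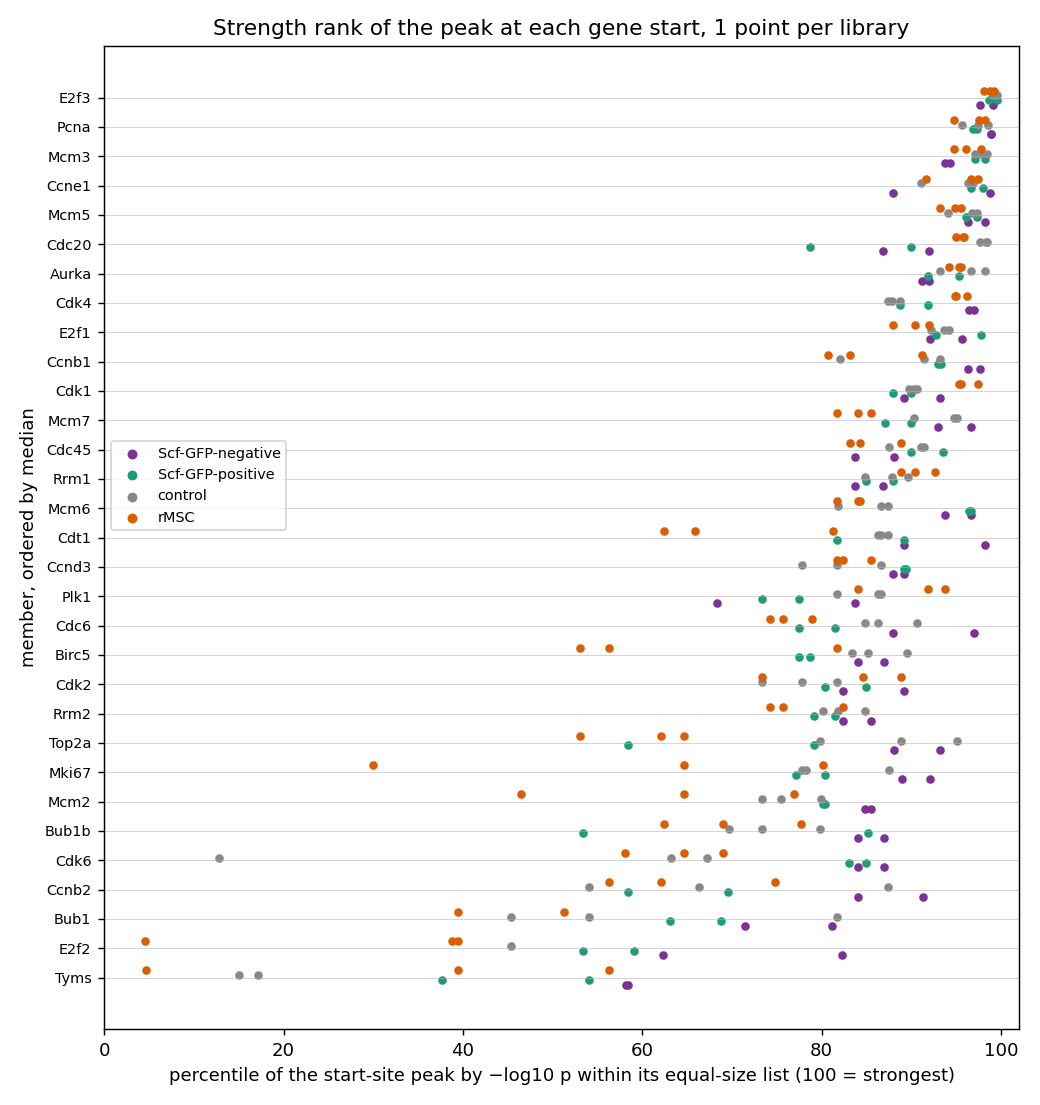
Percentile by −log10 p of the peak at the start of each of the 31 cell cycle genes with a start in the promoter table (x axis, 100 = strongest), 1 point per library, coloured by group and ordered by median (y axis). E2f3, Pcna and Mcm3 sit above 93 in every library, whereas Tyms, E2f2, Bub1 and Cdk6 spread widely.

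The promoters below show what the open starts share in sequence and where the replication and mitosis genes differ. The promoter window ran from 250 bases before to 50 after the start, and 3 motifs were searched on both strands: the E2F site TTTNNCGC, which includes the forms TTTGGCGC and TTTCCCGC, the cell cycle homology region (CHR) TTTGAA or TTCGAA, and CCAAT, the site of NF-Y. E2F factors act at replication genes, and the MuvB complex reads the CHR of mitotic genes. The E2F site was in 34.3% of the 35 windows of these genes and in 6.3% of 21045 windows of coding genes, the CHR in 14 of the 35 and 17.2% of all, and CCAAT in 71.4% and 38.5%. By role, 6 of 10 windows of licensing and replication genes held an E2F site and 3 of 10 a CHR, while 1 of 9 mitotic windows held an E2F site, 7 of 9 a CHR and 8 of 9 CCAAT. All 14 windows with a CHR also held CCAAT, and 7.2% of all windows held both. Windows are printed 5′ to 3′ on the gene's strand with every match of the 3 motifs in capitals. The first 3 are helicase and clamp genes (Mcm6, chr1:128359656-128359955, minus strand; Mcm5, chr8:75109259-75109558, plus strand; Pcna, chr2:132253131-132253430, minus strand), each under a peak in all 10 libraries.
Mcm6: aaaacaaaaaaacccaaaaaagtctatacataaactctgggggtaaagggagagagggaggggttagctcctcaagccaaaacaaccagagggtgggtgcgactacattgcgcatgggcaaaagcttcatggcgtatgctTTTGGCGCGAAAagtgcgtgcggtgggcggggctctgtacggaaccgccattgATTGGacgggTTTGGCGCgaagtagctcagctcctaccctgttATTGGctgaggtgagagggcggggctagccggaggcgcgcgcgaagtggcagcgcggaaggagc
Mcm5: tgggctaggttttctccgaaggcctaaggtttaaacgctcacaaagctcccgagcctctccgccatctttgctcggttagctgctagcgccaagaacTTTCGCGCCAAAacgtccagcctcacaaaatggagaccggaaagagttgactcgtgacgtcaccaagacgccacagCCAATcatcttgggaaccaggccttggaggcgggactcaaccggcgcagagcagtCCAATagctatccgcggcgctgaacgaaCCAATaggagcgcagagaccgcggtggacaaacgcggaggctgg
Pcna: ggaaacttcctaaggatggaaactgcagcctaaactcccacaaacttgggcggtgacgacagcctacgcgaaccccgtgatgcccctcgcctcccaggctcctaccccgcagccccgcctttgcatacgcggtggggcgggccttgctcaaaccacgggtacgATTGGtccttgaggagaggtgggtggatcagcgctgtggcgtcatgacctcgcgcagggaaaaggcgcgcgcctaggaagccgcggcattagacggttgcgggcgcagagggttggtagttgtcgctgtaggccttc
In Mcm6 and Mcm5 the E2F matches stand beside 2 and 3 CCAAT matches, and in Pcna 1 CCAAT is the only match. Cdk1 (chr10:69352863-69353162, minus strand), Cdc20 (chr4:118437294-118437593, minus strand) and the proliferation antigen Mki67 (chr7:135716330-135716629, minus strand) carry CHR and CCAAT, with a peak over the window in all 10 libraries.
Cdk1: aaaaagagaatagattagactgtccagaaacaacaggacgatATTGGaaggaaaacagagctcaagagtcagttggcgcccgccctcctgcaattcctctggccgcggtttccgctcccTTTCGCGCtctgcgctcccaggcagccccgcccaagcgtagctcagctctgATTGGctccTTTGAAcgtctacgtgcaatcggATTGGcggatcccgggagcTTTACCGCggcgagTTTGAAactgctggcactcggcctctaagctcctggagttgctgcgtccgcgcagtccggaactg
Cdc20: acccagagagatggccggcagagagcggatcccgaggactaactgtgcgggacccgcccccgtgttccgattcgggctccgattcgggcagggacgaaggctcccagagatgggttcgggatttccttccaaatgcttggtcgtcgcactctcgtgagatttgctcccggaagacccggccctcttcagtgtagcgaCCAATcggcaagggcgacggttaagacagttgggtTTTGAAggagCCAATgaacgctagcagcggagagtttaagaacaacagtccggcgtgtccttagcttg
Mki67: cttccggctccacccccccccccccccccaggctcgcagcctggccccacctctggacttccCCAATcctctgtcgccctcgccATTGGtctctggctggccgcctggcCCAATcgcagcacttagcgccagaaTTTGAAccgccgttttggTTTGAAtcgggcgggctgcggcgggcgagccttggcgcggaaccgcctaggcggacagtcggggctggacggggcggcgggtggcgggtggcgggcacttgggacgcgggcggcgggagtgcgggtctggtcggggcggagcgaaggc
Cdk6 and E2f2 are shown because their loci showed the widest contrasts between Scf-GFP-negative cells and cultures among the tested loci. The Cdk6 window (chr5:3343643-3343942, plus strand) lay under a peak in all 10 libraries. E2f2 has 2 starts in the table, the upstream one at chr4:136172024-136172323 and the downstream one at chr4:136180532-136180831, both on the plus strand.
Cdk6: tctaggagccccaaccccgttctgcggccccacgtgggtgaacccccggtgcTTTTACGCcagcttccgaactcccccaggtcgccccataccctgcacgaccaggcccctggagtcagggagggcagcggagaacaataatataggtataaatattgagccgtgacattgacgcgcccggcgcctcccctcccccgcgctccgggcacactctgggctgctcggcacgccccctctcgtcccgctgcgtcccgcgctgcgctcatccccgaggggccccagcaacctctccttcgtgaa
E2f2 upstream start: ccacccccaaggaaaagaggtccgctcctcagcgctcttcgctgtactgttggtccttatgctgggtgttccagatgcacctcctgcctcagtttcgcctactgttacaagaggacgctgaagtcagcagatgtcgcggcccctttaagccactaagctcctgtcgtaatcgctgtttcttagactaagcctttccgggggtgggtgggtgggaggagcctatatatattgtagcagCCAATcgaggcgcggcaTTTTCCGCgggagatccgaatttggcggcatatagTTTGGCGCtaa
E2f2 downstream start: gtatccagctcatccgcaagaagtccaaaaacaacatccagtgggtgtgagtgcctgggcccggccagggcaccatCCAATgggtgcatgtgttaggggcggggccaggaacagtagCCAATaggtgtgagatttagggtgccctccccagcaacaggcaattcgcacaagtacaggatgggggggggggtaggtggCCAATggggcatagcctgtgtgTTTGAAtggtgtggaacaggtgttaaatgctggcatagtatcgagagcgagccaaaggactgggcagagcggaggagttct
A match is a run of letters and not a shown binding site. The 2 E2f2 windows differ in content, with 2 E2F matches upstream and a CHR with 3 CCAAT downstream, and they also differed in when they were open. A peak covered the upstream window in 5 libraries, the 4 sorted ones and control 2. It covered the downstream window in 7 libraries, the 4 sorted ones and all 3 rMSC.

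Summits over the whole loci, starts included, differed by group, most widely in gene bodies. Scf-GFP-negative libraries had 185 and 208 summits at the 37 loci, Scf-GFP-positive 111 and 110, control 93 to 95 and rMSC 91 to 101. Over all coding loci the mean per locus was 2.15 and 2.33, 2.02 and 2.00, and 1.87 to 1.95 in the cultures. As a share of the list, the 37 loci took 0.464 and 0.521% of Scf-GFP-negative peaks, 0.278 and 0.276% of Scf-GFP-positive peaks, and 0.228 to 0.253% of cultured ones. Summits inside gene bodies numbered 79 and 95 in the Scf-GFP-negative, 33 and 36 in the Scf-GFP-positive and 21 to 28 in the cultured libraries. Summits at the genes' own starts numbered 43 and 42, 38 and 35, and 31 to 35, so the Scf-GFP-negative libraries were highest there too. Start peaks of the 6 genes without a start in the promoter table are not among them. In a bulk library, fewer cells with a site open and less opening per cell cannot be told apart. With 20000 peaks per list, where the weakest peaks are gone, the sums were 106 and 106 in the Scf-GFP-negative, 76 and 71 in the Scf-GFP-positive and 60 to 66 in the cultured libraries, still without overlap. Marker sums moved with these sums. Pan-blood loci (9 genes) had 36 and 47 summits in the Scf-GFP-negative, 24 and 22 in the Scf-GFP-positive and 11 to 16 in the cultured libraries, with Ptprc at 0 in Scf-GFP-positive, and the erythroid and megakaryocyte sums are given above. T and NK lymphoid loci (5 genes) had 13 and 17 in the Scf-GFP-negative group and 5 to 8 elsewhere. B lymphoid loci had 4 and 6 against 3 to 7, myeloid loci 4 and 5 against 5 to 7, and endothelial loci 8 and 18 against 6 to 12, without such a separation. Their part in the result was not tested.

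**Figure D2:**
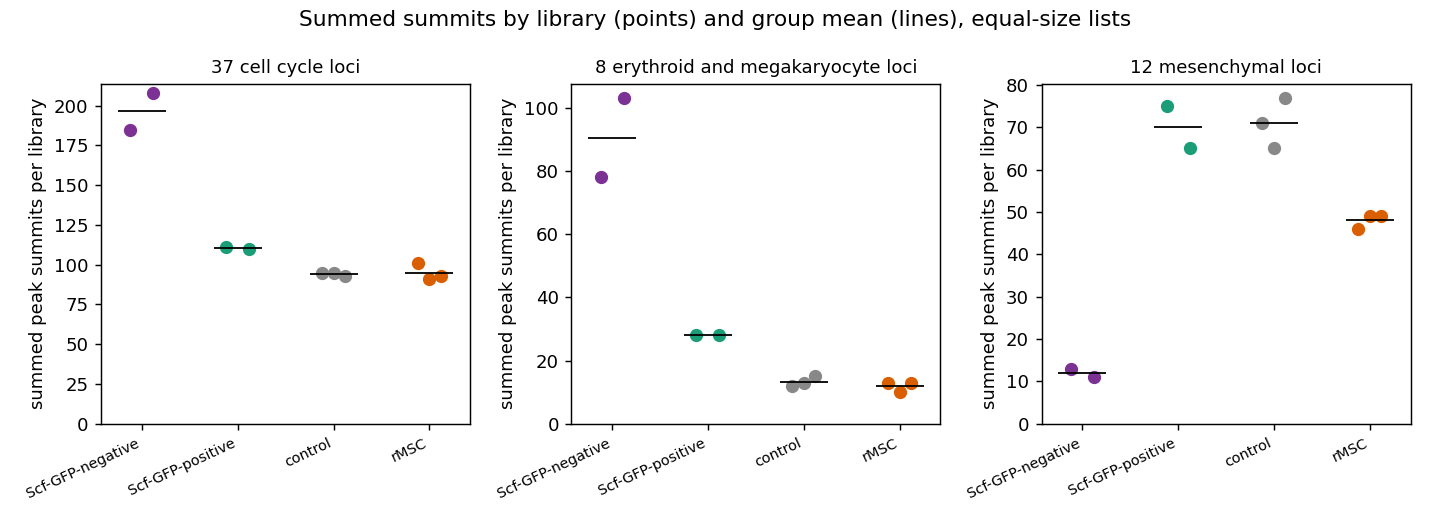
Summed peak summits per library (y axis, from 0) over the 37 cell cycle loci, 8 erythroid and megakaryocyte loci and 12 mesenchymal loci, by group (x axis). Points are libraries and lines are group means. Both Scf-GFP-negative libraries stand above the other 8 in the first and second panels, at 185 and 208 and at 78 and 103, and below them in the third, at 13 and 11.

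**Figure D3:**
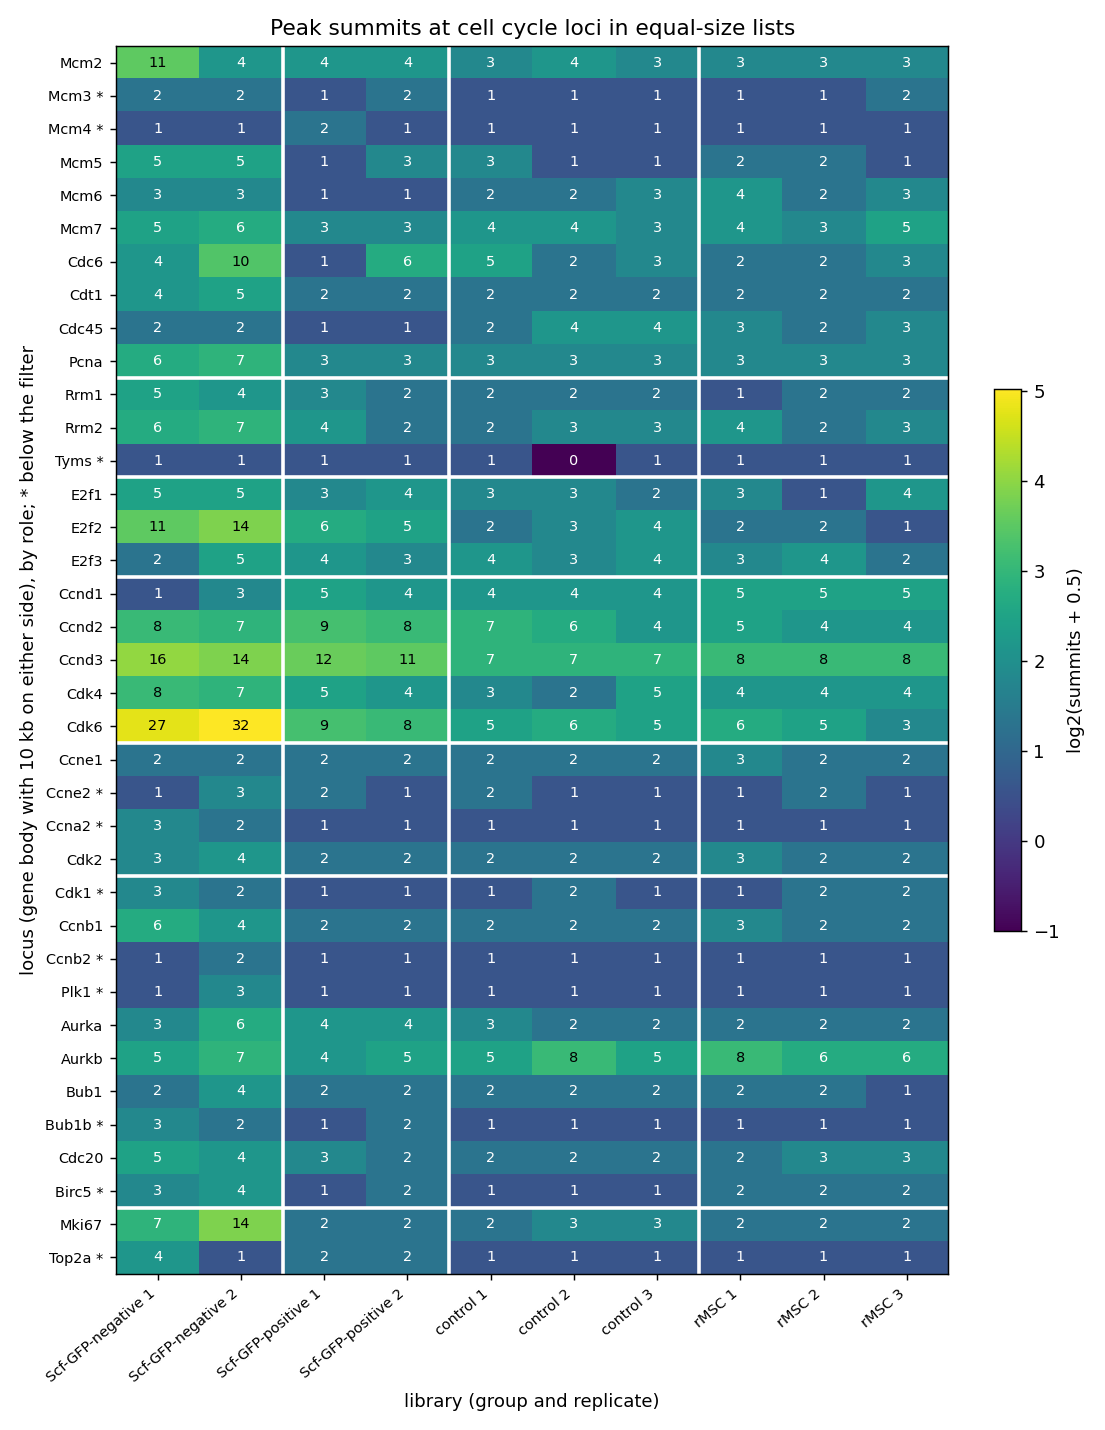
Peak summits at each of the 37 loci (rows, by role) in each of the 10 libraries (columns) in equal-size lists. Numbers are summits, colour is log2(summits + 0.5), and stars mark the 11 loci under the filter of a mean of 2 summits. Cdk6 holds the highest counts, 27 and 32 in the Scf-GFP-negative libraries.

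The limma test took every locus whose mean count over all 10 libraries reached 2 summits. A locus could thus enter through a single high group. Mcm5 did so through Scf-GFP-negative cells, with a mean of 5.0 there, 2.0 in Scf-GFP-positive and 1.667 in both cultured groups. A fall from that group at such a locus is not independent of the filter. The test was run on log2(summits + 0.5), the scale of all changes below, which are given with their standard error (SE). The p-values were adjusted over all 9149 tested loci (Benjamini-Hochberg, threshold 0.05). This left 26 of the 37 loci, and most of the other 11 had 1 or 2 summits in nearly every library. Between the sorted groups 1 of the 26 rose and 11 fell in Scf-GFP-positive cells, where 13.6% of all tested loci rose and 16.6% fell. The median change of the tested cell cycle loci was −0.74 and that of all tested loci −0.23. Over all 37 loci, tested or not, 20 had fewer summits in both Scf-GFP-positive libraries than in either Scf-GFP-negative one, or 54.1%, against 18.2% of all coding loci. A single locus, Ccnd1, had more in both, against 12.9% of all coding loci. For cultured cells (control and rMSC together) against Scf-GFP-negative cells 1 rose and 16 fell, where 18.3% of all tested loci rose and 26.9% fell. The median was −0.92 against −0.20, and 16 of the 37 (43.2%) did not overlap in the lower direction, against 15.1% of all coding loci, and 1, again Ccnd1, in the higher one, against 8.74%. Both comparisons use the same 2 Scf-GFP-negative libraries and so repeat what is particular to them.

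Against Scf-GFP-positive cells few loci passed in limma. For control cultures 1 rose and 1 fell of the 26 (5.22% and 5.62% of all tested loci), and for rMSC 2 rose and 3 fell (7.21% and 6.5%). The same 2 Scf-GFP-positive libraries serve both. Without overlap, 2 of the 37 loci were higher and 6 lower in control cultures (9.59% and 12.0% of all coding loci), and 3 higher and 7 lower in rMSC (11.6% and 12.5%). For rMSC against control none of the 26 passed in limma, where 1.39% of all tested loci rose and 1.19% fell, and 1 locus, E2f2, had an unadjusted p below 0.05. Ccnd1, Ccnd3 and Birc5 were higher in all rMSC than in any control library, 3 of 37 where 6.07% of all coding loci were, and 0 were lower, where 4.72% were. With all deposited peaks rMSC and control overlapped at Ccnd3, at Ccnd1 (8, 6 and 7 against 6, 7 and 7) and at Birc5 (2, 2 and 2 against 2, 1 and 2). With the 6 culture libraries fitted alone, limma called Ccnd1 (0.29 ± 0.03 (SE), adjusted p = 0.00578) and Ccnd3 (0.18 ± 0.03, adjusted p = 0.0342) higher in rMSC. Each rMSC library had 5 and 8 summits at these loci and each control library 4 and 7, so these SEs hold no spread of the loci's own. The 95% intervals of the 26 changes between rMSC and control reached from −1.74 at Cdc6 to 1.11 at Mcm5, so a locus that did not pass may still differ. With the replicate number as a block, none of the 5 rMSC calls (Ccnd2, Ccnd3, E2f2, Mcm6 and Cdc45) passed in limma (adjusted p of 0.0541 to 0.118).

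**Figure D4:**
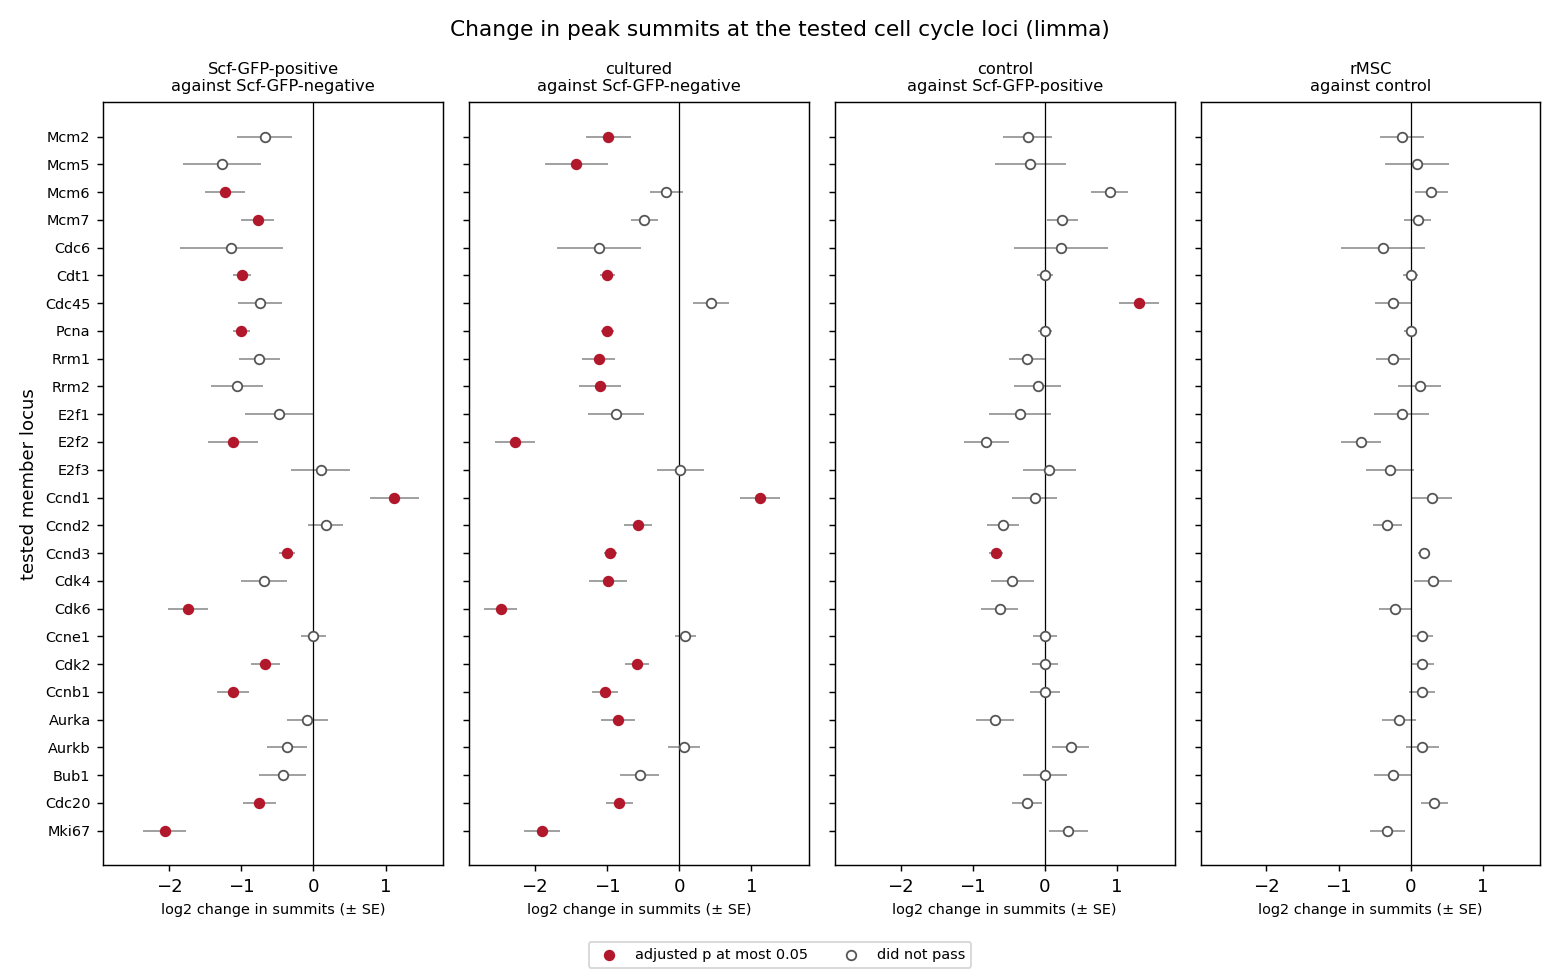
Log2 change in summits with its SE (x axis) at the 26 tested loci (rows) in 4 comparisons (panels). Filled points passed an adjusted p of 0.05 in limma. In the first and second panels most points lie left of 0 and Ccnd1 is the single filled point on the right, and in the last panel none is filled.

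Among the D cyclins and their kinases, which carry the first step of the cycle, the loci moved in opposite directions. Cdk6, the kinase partner of D cyclins that is prominent in blood cells, had 27 and 32 summits in the Scf-GFP-negative, 9 and 8 in the Scf-GFP-positive, 5, 6 and 5 in the control and 6, 5 and 3 in the rMSC libraries. The Scf-GFP-negative libraries stood far above all others, and the Scf-GFP-positive ones above all cultures. Cdk6 fell by 1.73 ± 0.28 (SE) from Scf-GFP-negative to Scf-GFP-positive cells (limma adjusted p = 0.00387) and fell by 2.47 ± 0.23 to cultures (limma adjusted p = 0.000159). Cdk6 is also the longest of these genes (chromosome 5, 3341004 to 3531008), and no other coding gene lies in its locus. Within the equal-size lists, peaks with a −log10 q of at least 5 leave 10 and 22 summits in the Scf-GFP-negative, 8 and 5 in the Scf-GFP-positive and 3 to 6 in the cultured libraries. The lists of control 2, control 3, rMSC 1 and rMSC 2 end above that threshold, at 5.123 to 5.802, so their counts may be too low.

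Ccnd1, cyclin D1 (chromosome 7, 144929931 to 144939831), ran against the rest. It had 1 and 3 summits in the Scf-GFP-negative, 5 and 4 in the Scf-GFP-positive, 4, 4 and 4 in the control and 5, 5 and 5 in the rMSC libraries. Every Scf-GFP-positive and cultured library was above both Scf-GFP-negative ones. It rose by 1.12 ± 0.34 (SE) in Scf-GFP-positive cells (limma adjusted p = 0.0411) and by 1.12 ± 0.28 in cultures (limma adjusted p = 0.0136). The first call was lost when any 1 of the 8 Scf-GFP-positive, control and rMSC libraries was left out (adjusted p up to 0.169), and the second held in every such fit. The size of both rested on the Scf-GFP-negative libraries, at 0.51 without Scf-GFP-negative 1 and 1.73 without Scf-GFP-negative 2.

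Ccnd3, cyclin D3, had 16 and 14 summits in the Scf-GFP-negative, 12 and 11 in the Scf-GFP-positive, 7, 7 and 7 in the control and 8, 8 and 8 in the rMSC libraries. In these equal-size lists the groups formed 4 separate levels with no overlap, in the order Scf-GFP-negative, Scf-GFP-positive, rMSC, control. With all deposited peaks the counts were 18 and 14 in the Scf-GFP-negative, 13 and 17 in the Scf-GFP-positive, 7, 8 and 9 in the control and 10, 12 and 8 in the rMSC libraries. The sorted groups then overlapped, as did rMSC and control, and the change between the sorted groups was −0.09 (limma adjusted p = 0.874). From Scf-GFP-positive cells it fell by 0.68 ± 0.10 (SE) to control (limma adjusted p = 0.00818) and fell by 0.50 ± 0.10 to rMSC cultures (limma adjusted p = 0.0176). Neither of these calls held with all deposited peaks (limma adjusted p = 0.0887 and 0.198). In Scf-GFP-positive cells it fell by 0.37 ± 0.11 from Scf-GFP-negative cells (limma adjusted p = 0.0361). The rMSC call was lost without Scf-GFP-positive 1 (adjusted p = 0.0696) and the sorted call without Scf-GFP-positive 2 (adjusted p = 0.109). The rMSC and control levels differed by 0.18 ± 0.09 and did not pass (limma adjusted p = 0.326).

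Ccnd2, cyclin D2, had 8 and 7 summits in the Scf-GFP-negative, 9 and 8 in the Scf-GFP-positive, 7, 6 and 4 in the control and 5, 4 and 4 in the rMSC libraries. It was high in all sorted libraries and lower in rMSC, where it fell by 0.90 ± 0.22 (SE) from Scf-GFP-positive cells (limma adjusted p = 0.038). Cdk4, the other D cyclin kinase, had 8 and 7 summits in the Scf-GFP-negative, 5 and 4 in the Scf-GFP-positive, 3, 2 and 5 in the control and 4, 4 and 4 in the rMSC libraries. Cdk4 fell by 0.98 ± 0.26 (SE) and Ccnd2 fell by 0.57 ± 0.20 from Scf-GFP-negative cells to cultures (limma adjusted p = 0.0191 and 0.0496). Each of these calls was lost without 1 library: Cdk4 without Scf-GFP-negative 1 or 2 (adjusted p up to 0.11), Ccnd2 in rMSC without Scf-GFP-positive 1 or 2, control 2 or any rMSC library (up to 0.162), and Ccnd2 in cultures without any of 8 libraries, all but control 1 and control 3 (up to 0.209). The Cdk4 locus also holds 4 other coding genes.

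**Figure D5:**
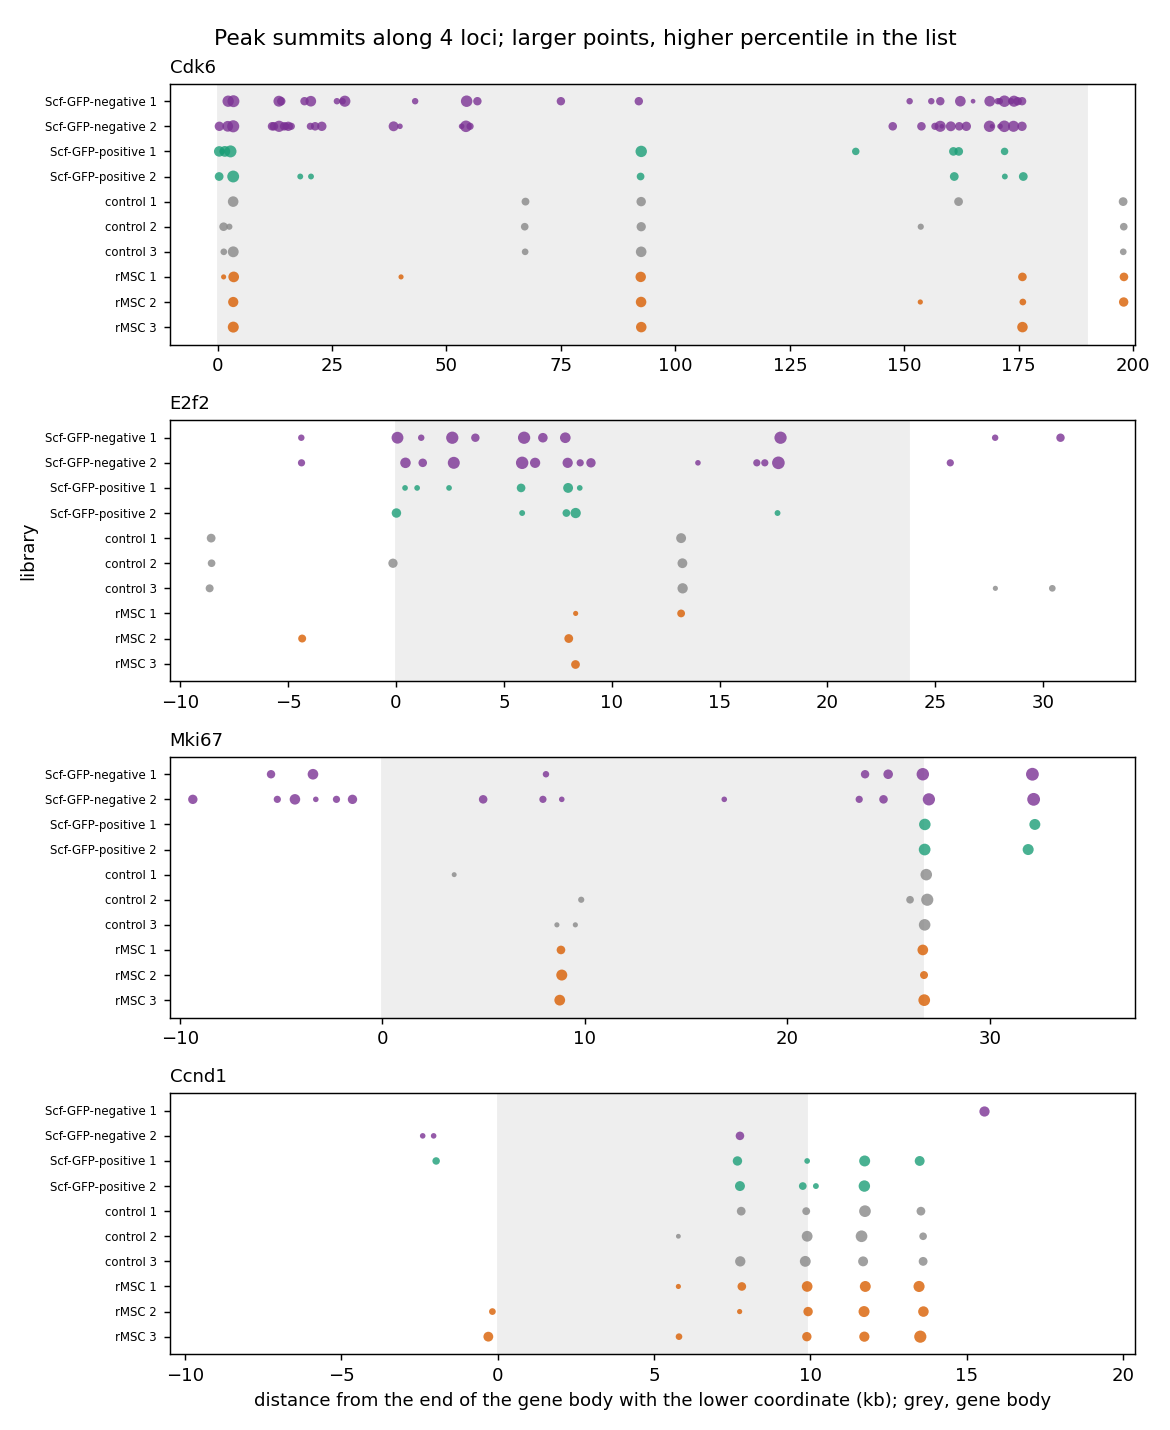
Position of every counted summit along the Cdk6, E2f2, Mki67 and Ccnd1 loci (x axis, kb from the end of the gene body with the lower coordinate; grey, gene body) in the 10 libraries (rows). Larger points have a higher percentile in their list. The Cdk6, E2f2 and Mki67 rows hold the most summits in the Scf-GFP-negative libraries, at 27 and 32, 11 and 14, and 7 and 14, and the Ccnd1 rows the fewest, at 1 and 3.

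E2f2, an activating E2F factor, showed the next widest contrast between Scf-GFP-negative cells and cultures. It had 11 and 14 summits in the Scf-GFP-negative, 6 and 5 in the Scf-GFP-positive, 2, 3 and 4 in the control and 2, 2 and 1 in the rMSC libraries, again with no overlap between Scf-GFP-negative, Scf-GFP-positive and cultured cells. From Scf-GFP-negative cells it fell by 1.11 ± 0.34 (SE) to Scf-GFP-positive cells (limma adjusted p = 0.0438) and fell by 2.27 ± 0.28 to cultures (limma adjusted p = 0.000636). From Scf-GFP-positive cells to rMSC the change was −1.504 ± 0.31 (limma adjusted p = 0.0222). The Scf-GFP-positive call was lost without any 1 of the 4 sorted libraries, control 2, rMSC 1 or rMSC 2 (adjusted p up to 0.173), and the rMSC call without Scf-GFP-positive 1 or 2 (up to 0.117). E2f1 had 5 and 5 summits in the Scf-GFP-negative, 3 and 4 in the Scf-GFP-positive and 1 to 4 in the cultured libraries, and E2f3 had 2 and 5, 4 and 3, and 2 to 4. Neither passed in any of the 5 comparisons, and the median percentile of their start peaks was 92.5 and 99.1.

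Of the licensing and replication genes, Pcna and Cdt1 were level across the 8 libraries outside the Scf-GFP-negative group in equal-size lists. Pcna had 6 and 7 summits in Scf-GFP-negative and 3 in each of the other 8 libraries. It fell by 1.00 ± 0.11 (SE) to Scf-GFP-positive cells (limma adjusted p = 0.000908) and fell by 1.00 ± 0.09 to cultures (limma adjusted p = 0.000166). Cdt1, which loads the helicase, had 4 and 5 summits in Scf-GFP-negative and 2 in each other library, and its changes were −0.99 ± 0.12 and −0.99 ± 0.10 (limma adjusted p = 0.00137 and 0.000263). With 20000 peaks per list Cdt1 had 2 summits in all 10 libraries, so no difference was left among the stronger peaks. Pcna kept 4 and 5 against 3. With all deposited peaks Cdt1 had 4 and 5 summits in Scf-GFP-negative but also 4 in control 2 and in rMSC 3, so the groups overlapped. Pcna then had 6 and 7 against 3 or 4.

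The helicase subunits differed among themselves. Mcm6 had 3 and 3 summits in the Scf-GFP-negative, 1 and 1 in the Scf-GFP-positive, 2, 2 and 3 in the control and 4, 2 and 3 in the rMSC libraries, and was thus lowest in Scf-GFP-positive cells. It fell by 1.22 ± 0.28 (SE) from Scf-GFP-negative to Scf-GFP-positive cells (limma adjusted p = 0.0161) and rose by 1.18 ± 0.26 from there to rMSC (limma adjusted p = 0.0257). Mcm7 had 5 and 6, 3 and 3, 4, 4 and 3, and 4, 3 and 5 summits in the same order, and fell by 0.77 ± 0.23 to Scf-GFP-positive cells (limma adjusted p = 0.04). Its locus holds 4 other coding genes. Mcm2 (11 and 4, 4 and 4, 3 to 4, 3) and Mcm5 (5 and 5, 1 and 3, 1 to 3, 1 to 2) passed from Scf-GFP-negative cells to cultures, with changes of −0.98 ± 0.31 and −1.425 ± 0.44 (limma adjusted p = 0.0342 and 0.0316). The 2 Scf-GFP-negative libraries disagreed at Mcm2, where 1 of them overlapped the other groups. Mcm3 and Mcm4 had 1 or 2 summits in every library and were not tested. None of these calls held in every fit that left out 1 library. The first Mcm6 call was lost without any 1 sorted library (adjusted p up to 0.065), the second without Scf-GFP-positive 1 or 2, rMSC 1 or rMSC 3 (up to 0.108), and that of Mcm7 without any 1 sorted library, control 1, control 2 or rMSC 1 (up to 0.149). That of Mcm5 was lost without Scf-GFP-negative 1 or 2, control 2, control 3 or rMSC 3 (up to 0.139), and that of Mcm2 without any library but Scf-GFP-negative 2 and control 2 (up to 0.14). The Mcm2 change was −0.30 without Scf-GFP-negative 1 and −1.66 without Scf-GFP-negative 2.

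Cdc45, which completes the active helicase, was the single locus that rose from Scf-GFP-positive cells to control cultures, and it rose in rMSC too. It had 2 and 2 summits in the Scf-GFP-negative, 1 and 1 in the Scf-GFP-positive, 2, 4 and 4 in the control and 3, 2 and 3 in the rMSC libraries. All cultures were above both Scf-GFP-positive libraries. It rose by 1.30 ± 0.28 (SE) in control cultures (limma adjusted p = 0.0289) and by 1.06 ± 0.28 in rMSC (limma adjusted p = 0.0469). The control call was lost without Scf-GFP-positive 1 or 2 or control 2 or 3 (adjusted p up to 0.118) and the rMSC call without any library but control 1 (up to 0.163). Cdc6, the other loader, had 4 and 10, 1 and 6, 2 to 5 and 2 to 3 summits and did not pass in any comparison.

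Of the genes that supply nucleotides, both ribonucleotide reductase subunits fell from Scf-GFP-negative cells to cultures. Rrm1 had 5 and 4 summits in the Scf-GFP-negative, 3 and 2 in the Scf-GFP-positive, 2, 2 and 2 in the control and 1, 2 and 2 in the rMSC libraries. Rrm2 had 6 and 7, 4 and 2, 2, 3 and 3, and 4, 2 and 3. At both loci the Scf-GFP-negative libraries were above all others. The changes were −1.12 ± 0.23 (SE) and −1.10 ± 0.29 (limma adjusted p = 0.00627 and 0.0187). The Rrm1 call was lost without Scf-GFP-negative 1 (adjusted p = 0.0527) and the Rrm2 call without either Scf-GFP-negative library (up to 0.118). Tyms had 1 summit in 9 libraries and 0 in control 2, and was not tested.

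The E and A cyclins and Cdk2 held few summits in every group. Ccne1 had 2 summits in 9 libraries and 3 in rMSC 1. Cdk2 had 3 and 4 summits in the Scf-GFP-negative, 2 and 2 in the Scf-GFP-positive, 2, 2 and 2 in the control and 3, 2 and 2 in the rMSC libraries, and fell by 0.67 ± 0.20 (SE) to Scf-GFP-positive cells and fell by 0.59 ± 0.16 to cultures (limma adjusted p = 0.0394 and 0.0211). The first call was lost without Scf-GFP-negative 2, either Scf-GFP-positive or any control library (adjusted p up to 0.143), the second without Scf-GFP-negative 2 (0.137). Another random order of tied peaks ended both calls (changes of −0.42 and −0.26, adjusted p = 0.345 and 0.434), and with 20000 peaks per list Cdk2 had 2 summits in all 10 libraries. Cyclin A2 (Ccna2), not tested, had 3 and 2 summits in Scf-GFP-negative and 1 in each other library, and Ccne2 had 1 to 3 throughout.

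Of the mitotic genes, Ccnb1, Cdc20 and Aurka fell from Scf-GFP-negative cells to cultures, and Ccnb2 and Plk1 held only their start peak in all 8 libraries outside the Scf-GFP-negative group. Ccnb1, cyclin B1, had 6 and 4 summits in the Scf-GFP-negative, 2 and 2 in the Scf-GFP-positive, 2, 2 and 2 in the control and 3, 2 and 2 in the rMSC libraries. It fell by 1.11 ± 0.22 (SE) to Scf-GFP-positive cells (limma adjusted p = 0.00923) and fell by 1.03 ± 0.18 to cultures (limma adjusted p = 0.00308). With 20000 peaks per list it had 5 and 2 summits in Scf-GFP-negative and 2 in each other library, so 1 Scf-GFP-negative library was level with the rest, and neither call was made (change −0.57 in both, adjusted p = 0.247 and 0.122). Cdc20 had 5 and 4, 3 and 2, 2, 2 and 2, and 2, 3 and 3, with changes of −0.75 ± 0.23 and −0.83 ± 0.19 (limma adjusted p = 0.041 and 0.00879). Its start peak, by contrast, ranked higher in cultures than in sorted cells, as given above. Aurora kinase A (Aurka) had 3 and 6, 4 and 4, 3, 2 and 2, and 2, 2 and 2 summits and fell by 0.85 ± 0.24 to cultures (limma adjusted p = 0.0211), although Scf-GFP-negative 1 and control 1 were level at 3. The Aurka call was lost without Scf-GFP-negative 2 (change −0.41, adjusted p = 0.137; −1.30 without Scf-GFP-negative 1), the second Cdc20 call without Scf-GFP-negative 1 (0.0654), and the first Cdc20 call without any library but Scf-GFP-positive 1 and rMSC 1 (up to 0.187).

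Aurkb, Aurora kinase B, did not follow, with 5 and 7 summits in the Scf-GFP-negative, 4 and 5 in the Scf-GFP-positive, 5, 8 and 5 in the control and 8, 6 and 6 in the rMSC libraries. All rMSC libraries were above both Scf-GFP-positive ones, the other groups overlapped, and no comparison passed. The checkpoint kinase Bub1 had 2 and 4 summits in Scf-GFP-negative and 1 or 2 elsewhere and did not pass either. Below the filter, Birc5 (survivin) had 3 and 4 summits in Scf-GFP-negative and 1 or 2 in each other library, Cdk1 had 3 and 2 against 1 or 2, Bub1b 3 and 2 against 1 or 2, Plk1 1 and 3 against 1, and Ccnb2 1 and 2 against 1.

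Mki67, which coats the chromosomes of dividing cells, had 7 and 14 summits in the Scf-GFP-negative, 2 and 2 in the Scf-GFP-positive, 2, 3 and 3 in the control and 2, 2 and 2 in the rMSC libraries. Even the lower Scf-GFP-negative library was above every other. It fell by 2.06 ± 0.30 (SE) to Scf-GFP-positive cells and fell by 1.90 ± 0.25 to cultures (limma adjusted p = 0.0027 and 0.000795). The locus also holds Ptpre, whose summits cannot be separated from it here. Top2a, topoisomerase II alpha, had 4 and 1 summits in the Scf-GFP-negative, 2 and 2 in the Scf-GFP-positive and 1 in each cultured library, and was not tested.

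Of the 36 calls given above, 6 held under every setting in which they were tested. Those 6 were Ccnd1, Ccnd3, Cdk6, E2f2, Mki67 and Pcna from Scf-GFP-negative cells to cultures, and no fitted change reversed in 834 refits. Of these, Ccnd1, E2f2 and Mki67 were not tested with 20000 peaks per list. Ccnd1 then had 1 and 0 summits in the Scf-GFP-negative and 1 to 3 in the cultured libraries, so the groups overlapped. E2f2 had 6 and 7 against 0 to 1, and Mki67 had 4 and 3 against 1 to 2, both without overlap. With all deposited peaks in place of equal-size lists, 3 calls were made between the sorted groups, where there had been 12, and 8 for cultures, where there had been 17. By the names under which the peak lists were deposited, replicate 1 of every group was on 1 flow cell and all other replicates on another. The sample labels name no flow cell. With a flow cell term 30 of the 36 calls held, and those lost were Ccnd1, Cdc20, Cdk2, E2f2 and Mcm7 between the sorted groups (limma adjusted p of 0.0517 to 0.0616) and Cdc45 in rMSC against Scf-GFP-positive cells (0.0665). The first flow cell held 1 library per group, so no test could be made within it. With the replicate number as a block 19 of the 36 held. Besides the 5 rMSC calls, those lost were Ccnd1, Ccnd3, Cdc20, Cdk2, E2f2 and Mcm7 between the sorted groups (limma adjusted p of 0.072 to 0.0903), Cdc45 in control cultures (0.0858), and Aurka, Ccnd2, Cdk2, Mcm2 and Mcm5 from Scf-GFP-negative cells to cultures (0.0632 to 0.0913).

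Merging overlapping peaks of all 10 libraries gave 289 regions at these loci, of 120038 in all. At these loci 52 regions (17.99%) were open in all 10 libraries, against 7.76% of all regions. Another 24 (8.30%) were open in both Scf-GFP-negative libraries and in no other, against 3.85% of all regions, while 0 were open in both Scf-GFP-positive libraries and in no other, against 3.77%. A further 137 (47.4%) were open in 1 library alone, near the 44.14% of all regions. Of these 137, 114 were in a Scf-GFP-negative library, against 25736 of the 52980 lone regions in all. Such lone regions made up 31.4 and 34.6% of the cell cycle regions in Scf-GFP-negative 1 and 2, against 39.0 and 31.7% of all their regions, so lone peaks were common there at large. Of the 46 Cdk6 regions, 6 were open in both Scf-GFP-negative libraries and no other, 27 in 1 of these libraries alone and 1 in all 10.

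Set against each other, 26 regions (9.0%) were open in both Scf-GFP-negative and no Scf-GFP-positive library, where 4.48% of all regions were, and 5 (1.73%) the other way, where 9.61% were. The 26 comprised 17 in gene bodies and 9 in flanks, none within 1 kb of a start in the table. The strongest lay in the flank of Rrm2, 7378 bases past its start (chr12:24715369-24715966, percentiles 80.5 and 83.7), inside Cdk6 51446 bases from its start (chr5:3394989-3395717), inside Cdc6 (chr11:98911239-98912029), inside Ccna2 (chr3:36569579-36570575) and at 2 more places in Cdk6 (chr5:3514606-3515869 and chr5:3354145-3355695). None of these 6 was open in a cultured library. The 5 in the other direction included 2 at Ccnd1, in its flank at chr7:144941179-144942818 and at the higher-coordinate end of the gene body at chr7:144939334-144940298. Both were open in all 8 libraries outside the Scf-GFP-negative group. Ccnd1 has no start in the table, so whether the second region is its start was not determined. The other 3 were at Podxl2 in the Mcm2 locus (chr6:88874443-88875442), in the flank of Rrm1 (chr7:102479126-102480093) and in that of Ccnd2 (chr6:127154321-127155382).

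Cultured cells held 5 regions (1.73%) open in all 6 libraries and in no Scf-GFP-negative one, against 5.74% of all regions, and lacked 37 (12.8%) that both Scf-GFP-negative libraries had, against 6.25%. Apart from 3 at Ccnd1, these 5 were one 4720 bases upstream of the Ccne1 start (chr7:38111797-38112584, mean percentile 89.7) and one inside Cdc45 (chr16:18795134-18796057, 82.8), and both were absent from all sorted libraries. The Cdc45 region lies in the gene whose locus rose in culture. Between the cultures, 5 regions (1.73%, against 3.05% of all) were open in every rMSC and no control library. They were the downstream start of E2f2 (chr4:136179952-136181433), a Cdk6 region at chr5:3516588-3517195, the start of Marchf9 beside Cdk4 (chr10:127060076-127060757), and flanks of Ccnd3 (chr17:47599788-47600491) and Birc5 (chr11:117843173-117843859). The reverse held for 4 regions (1.38%, against 3.4%), in the flanks of Rrm1 (chr7:102479126-102480093) and E2f2 (chr4:136163509-136163972) and inside Cdk6 (chr5:3407911-3408469) and Cdc6 (chr11:98921705-98923548). The mean percentiles of both sets were 20.6 to 48.0, so these 9 peaks were of middle to low rank in their lists. Of all 289 regions, 9 were open in control and not Scf-GFP-positive libraries and 12 the other way (7.14% and 6.17% of all regions), and for rMSC 10 and 15 (7.9% and 7.05%). With all deposited peaks these became 15 and 12 and 18 and 13, so the balance turned in both comparisons.

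The same comparisons were read over 89 other cell cycle genes, of which 50 were tested. From Scf-GFP-negative to Scf-GFP-positive cells 1 of the 50 rose and 10 fell, where 13.6% of all tested loci rose and 16.6% fell. From Scf-GFP-negative cells to cultures 5 rose and 18 fell, where 18.3% of all tested loci rose and 26.9% fell. For control against Scf-GFP-positive cells it was 1 and 4 (5.22% and 5.62% of all tested loci), and for rMSC 5 and 2 (7.21% and 6.5%). Among the pocket proteins, other E2F and DREAM genes, 4 of 11 tested fell to Scf-GFP-positive cells, where 16.6% of all tested loci fell. Tfdp1, the E2F dimer partner, had 5 and 6 summits in the Scf-GFP-negative, 1 and 1 in the Scf-GFP-positive and 1 or 2 in the cultured libraries. Its change was −1.995 ± 0.25 (SE, limma adjusted p = 0.00143), and it reached the filter only through the Scf-GFP-negative libraries. Rb1, the retinoblastoma protein, had 7 and 11, 5 and 4, and 2 to 4 summits and fell by 0.90 ± 0.25 (limma adjusted p = 0.0309), and E2f8 and E2f4 fell as well. The Rb1 call was lost without Scf-GFP-negative 2, either Scf-GFP-positive library, rMSC 1 or rMSC 2 (adjusted p up to 0.137), and those of E2f8 and E2f4 without any 1 sorted library (up to 0.122 and 0.109) and, for E2f4, rMSC 1.

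Among 36 other replication genes 4 of 18 tested fell to Scf-GFP-positive cells and none rose, where 16.6% of all tested loci fell and 13.6% rose. Chaf1b, a subunit of the chromatin assembly factor, had 8 and 5 summits in the Scf-GFP-negative, 1 and 1 in the Scf-GFP-positive, 3, 3 and 3 in the control and 3, 2 and 2 in the rMSC libraries. It fell by 2.19 ± 0.24 (SE) to Scf-GFP-positive cells (limma adjusted p = 0.000744) and rose again by 1.22 ± 0.22 in control cultures (limma adjusted p = 0.0174, lost without Scf-GFP-positive 1 or 2 at up to 0.0771). Prim2, a primase subunit, had 15 and 12, 5 and 4, and 3 to 6 summits and fell by 1.48 ± 0.29 (limma adjusted p = 0.00849). Chaf1a and Rfc4 were the other 2, and these calls were lost without Scf-GFP-negative 1 or Scf-GFP-positive 2 (Chaf1a, adjusted p up to 0.0693) and without any library but Scf-GFP-negative 1 and rMSC 2 (Rfc4, up to 0.217). In cultures against Scf-GFP-negative cells Chaf1b, Prim2, Rfc2 and Tk1 were among the 5 of 18 replication loci that fell, where 26.9% of all tested loci did. Lig1, the DNA ligase of replication, rose, as did 18.3% of all tested loci. Of 30 other mitosis genes 1 of 16 tested, the condensin subunit Smc4, fell to Scf-GFP-positive cells (limma adjusted p = 0.0376, up to 0.113 without either Scf-GFP-positive or any rMSC library). In rMSC against Scf-GFP-positive cells Aspm, Anln and Tpx2 rose and Prc1 fell, where 7.21% of all tested loci rose and 6.5% fell. Aspm, a spindle pole protein, had 1 and 2 summits in the Scf-GFP-negative, 1 and 1 in the Scf-GFP-positive, 2, 2 and 2 in the control and 3, 3 and 3 in the rMSC libraries and rose by 1.22 ± 0.20 (limma adjusted p = 0.0107, and 0.05, just past the threshold, without Scf-GFP-positive 1). The Anln call was lost without either Scf-GFP-positive or any rMSC library (adjusted p up to 0.089), and the Tpx2 call without any library but control 2 (up to 0.159).

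The CDK inhibitors, which restrain the kinases, split. Cdkn1b (p27) had 10 and 12 summits in the Scf-GFP-negative, 4 and 5 in the Scf-GFP-positive, 2, 3 and 2 in the control and 4, 3 and 3 in the rMSC libraries, with no overlap between Scf-GFP-negative and the rest. It fell by 1.20 ± 0.23 (SE) to Scf-GFP-positive cells (limma adjusted p = 0.00776). Cdkn2c (p18) had 2 and 2, 4 and 4, 3 to 5 and 3 to 4 and rose by 0.85 ± 0.24 (limma adjusted p = 0.035, lost without any 1 sorted library, rMSC 2 or rMSC 3 at up to 0.113). Between rMSC and control 1 of the 50 other cell cycle loci passed, where 1.39% of all tested loci rose and 1.19% fell. E2f7, a repressing E2F, had 1, 1 and 1 summits in control and 4, 6 and 4 in rMSC libraries and rose by 1.76 ± 0.30 (limma adjusted p = 0.0336). The call was lost without any control library, rMSC 1 or rMSC 3 (adjusted p up to 0.104).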

How the data were processed

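For each of the 10 ATAC-seq libraries the authors deposited 1 list of peaks, with no pooling of replicates. BWA, MACS2 and mm10 are named per the submitters' processing notes, without versions or settings. Each deposited peak carries an interval, a score of 10 times the −log10 q, a fold enrichment ratio, its −log10 p-value, its −log10 q-value and a summit offset in bases, all as the authors' caller wrote them. Here −log10 p ranked peaks within a list, −log10 q filtered or described them, and the score and ratio entered no result.

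Chromosome Y was left out. The 39912 peaks with the highest −log10 p formed each equal-size list. Of these, 31780 to 39187 per library lay above the weakest value of the list. Peaks tied at that value, inside or outside the list, were 1.8 to 16.6% of a library's deposited peaks without chromosome Y. Their order was random with a fixed seed. Summits were counted at 21631 RefSeq coding loci (GRCm38.p6) and log2(summits + 0.5) was fitted with limma 3.58.1 with a trend in R 4.3.3, all 4 groups in 1 fit with 6 residual and 1.569 prior degrees of freedom, without blocks. Tests were two-sided with Benjamini-Hochberg adjustment over 9149 loci. The log2 scale with its pseudocount understates changes of loci with few summits. The fit was tested on simulated Poisson counts, whose spread may differ from that of these libraries. Between the sorted groups it recovered 13 of 100 loci raised 4-fold and 1 of 100 raised 2-fold. For control and rMSC against Scf-GFP-positive cells it recovered 18 and 0, and 22 and 0. For rMSC against control it recovered 39 and 3, and for cultures against Scf-GFP-negative cells 75 and 7. A locus without a call may thus still have changed.

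The members, the gene lists and the rule for naming were chosen with earlier results of these data known. The rule names every member that passed in any of 5 comparisons, up to 4 passing genes of each other list per direction, and up to 6 regions per comparison and direction by percentile. Marker lists covered mesenchymal, erythroid and megakaryocyte, pan-blood, B lymphoid, T and NK lymphoid, myeloid and endothelial cells. Region overlap was at least 1 base. Alternatives were other list sizes, thresholds, pseudocount, filters, locus widths, tie orders, chromosome totals, flow cell, replicate block, own-group fits and each library left out.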

Additional observations from a re-analysis of the deposited data

How the results depend on the processing

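The number of member loci called moved by more than 1.5 times under several settings. From Scf-GFP-negative to Scf-GFP-positive cells (12 calls) it was 3 with all deposited peaks, 7 with a −log10 q of at least 3, 7 with a mean of at least 3 summits, 3 with these groups fitted alone, 7 with a flow cell term and 2 with 20000 peaks. For control against Scf-GFP-positive cells (2 calls) it was 0, with all deposited peaks, 5 with 5 kb on either side, and 1 with a mean of at least 3 summits, with these groups fitted alone or with 20000 peaks. For rMSC against Scf-GFP-positive cells (5 calls) it was 2 with all deposited peaks, also divided by library total, 3 with a mean of at least 3 summits or equalised chromosome totals, and 1 with 20000 peaks. For rMSC against control (0 calls) it was 2 with the cultures fitted alone. For cultures against Scf-GFP-negative cells (17 calls) it was 8 with all deposited peaks, 11 with a mean of at least 3 summits and 5 with 20000 peaks. The higher filters and shorter lists test fewer loci by construction; otherwise the cause was not tested. Leaving out each library in turn gave 5 to 11, 1 to 3, 0 to 5, 0 to 1 and 11 to 18 calls in this order. Same-numbered libraries did not deviate together (r of −0.014 to 0.014 for the same number), though all replicates 1 shared a flow cell, so numbers did not pair samples by this measure; with the replicate block the calls were 6, 1, 0, 0 and 12, and 17 of the 36 named calls were lost. With all deposited peaks, 9 regions were open in Scf-GFP-positive and not Scf-GFP-negative libraries, 17 the other way, and 11 in cultures and not Scf-GFP-negative libraries; the control and rMSC comparisons with Scf-GFP-positive cells turned balance, as given in the text on regions. Counting a region as shared by a summit inside it equals overlap by construction, since regions are merged peaks. The number of genes with a start peak in every library of a group kept within 1.5 times. Settings with 20000 peaks, other tie orders and the median summit of a region were chosen after seeing the data. Unknown read depth limits every absence from a list.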
